A study of Mus musculus with 6 samples.

Results

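The 30 genes described here make cholesterol and fatty acids or control their making. They were taken by gene symbol from the FPKM table of mouse stomach RNA, which lists 23550 symbols, and all 30 were found. FPKM counts sequenced fragments per unit of gene length and of library size. By role, 7 genes lead from acetyl-CoA to farnesyl diphosphate (the mevalonate steps), 11 lead from there through squalene to cholesterol, 6 are regulators or carriers of sterol, and 6 make and shape fatty acids.

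The 6 libraries came from whole stomach of mice gavaged for 14 days with saline (3 libraries, titled with the numbers 1, 2 and 4) or with 20 mg per kg of the soluble dietary fibre Riclin (3 libraries, numbers 2, 3 and 4). The label of the saline group carries the same dose figure. The experiment held 20 mice, and strain, sex and age are not stated in the labels, nor is it said which mouse each library came from. The p-values therefore measure the spread between these libraries, which may be technical. The study asks how Riclin acts on the protective barrier of the stomach lining.

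Cells make cholesterol from acetyl-CoA by the mevalonate pathway, and fatty acids from acetyl-CoA by way of malonyl-CoA. Both routes are driven by the SREBP transcription factors, the products of Srebf1 and Srebf2. SREBPs are held in the endoplasmic reticulum by the escort protein SCAP and the INSIG proteins when sterol is plentiful, and they move to the Golgi and are cut free when sterol is scarce. In stomach, membrane lipid is needed by epithelium that is renewed fast and by parietal cells with wide secretory membranes, and fat cells attached to the organ make fatty acids as well.

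The FPKM values stand for whole reads, and between 332 (Hsd17b7) and 20847 (Scd1) reads lay behind each value of a member in a library. Library totals lay between 30884067 and 40050267 reads. Pancreatic acinar markers, transcripts of the enzyme-secreting cells of the neighbouring pancreas, took 3.61% of the reads in saline replicate 1, 14.4% in saline replicate 2 and 13.8% in saline replicate 4. Among the Riclin libraries the share was 9.98% for replicate 2, 0.0228% for replicate 3 and 9.36% for replicate 4. Such transcripts take reads from all other genes of a library, and values with those genes removed are given beside the results by library. The stomach label was checked by markers, with the proton pump gene Atp4a of parietal cells at 1273 to 2245 FPKM and the surface mucin gene Muc5ac at 246 to 546 FPKM over the 6 libraries.

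No difference between Riclin and saline was called for any of the 30 genes. By limma on log2(FPKM + 1), 0 of 30 passed a Benjamini-Hochberg adjusted p of 0.05, the lowest adjusted p among them was 0.843 (Hsd17b7), and the share called over all 11738 genes tested was 0%. At an unadjusted p under 0.05 there were also 0 of 30, beside 5.9% of all genes. In all 30 genes the ranges of the groups overlapped, while over all genes 11.2% showed no overlap. The log2 fold change was above 0 in 13 members and below 0 in 17, beside 61.3% above 0 over all genes. Its median was -0.012 over the members and 0.040 over all genes. For 29 of the 30, the 95% interval of the difference lay between -1 and 1 on the log2 scale, that is within a 2-fold change, and the exception was Scd1.

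**Figure D1:**
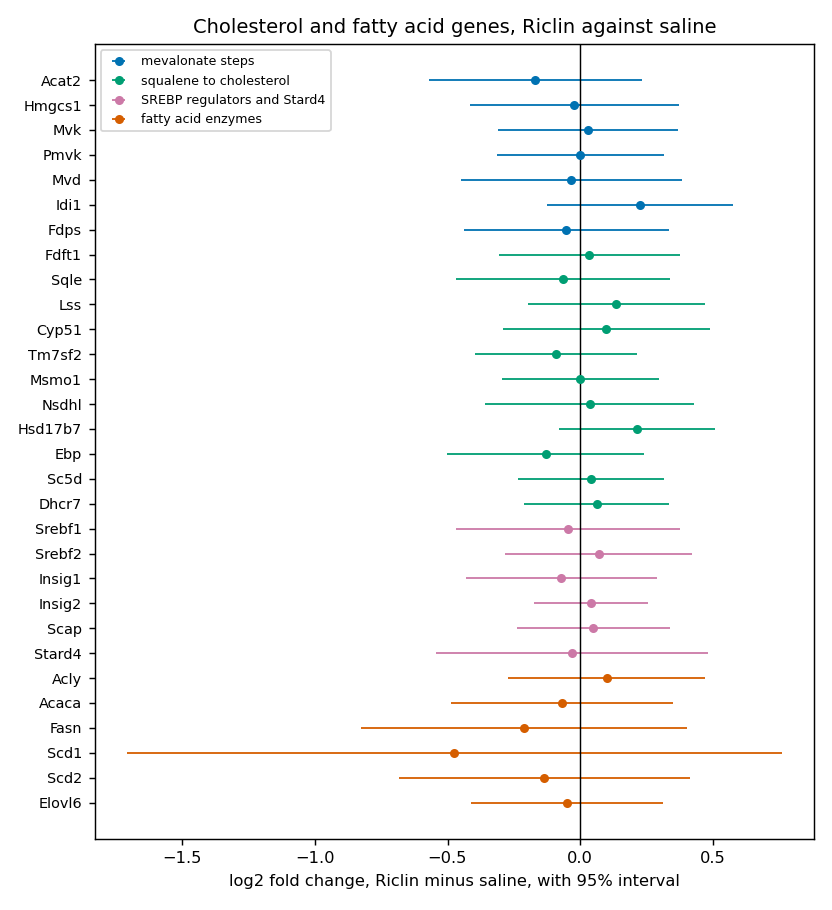
Log2 fold change of each of the 30 genes, Riclin minus saline on log2(FPKM + 1) (horizontal axis), with the 95% interval from limma as a bar and colours for the 4 roles. Every interval includes 0, the points lie between -0.47 (Scd1) and 0.22 (Idi1), and the interval of Scd1, from -1.71 to 0.76, is the widest.

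The sign of the small differences turned with single libraries. The number of members above 0 was 24 without saline replicate 1 and 7 without saline replicate 2, and the median over members was then 0.12 and -0.10.

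RefSeq promoter windows of 300 bases (250 before to 50 after a transcription start, build GRCm38.p6) were matched for 24 of the 30 genes, 5 of them with several starts. The letters of a sterol regulatory element, TCACNCCAC, a kind of site SREBPs bind, were searched on both strands. So were a looser form, the sites of the SREBP partner factors NF-Y and Sp1, and the E-box CACGTG. The first 250 bases of 4 windows are printed 5′ to 3′ on the gene's strand. These genes were picked since they act early in the sterol arm (Hmgcs1), hold SREBP back (Insig1), encode an SREBP (Srebf2) and make fatty acids (Fasn). Capitals mark every match to the 5 motifs searched. They lie at chr13:119690101-119690350 (Hmgcs1, plus strand), chr5:28071162-28071411 (Insig1, plus), chr15:82147019-82147268 (Srebf2, plus) and chr11:120824548-120824797 (Fasn, minus).
Hmgcs1: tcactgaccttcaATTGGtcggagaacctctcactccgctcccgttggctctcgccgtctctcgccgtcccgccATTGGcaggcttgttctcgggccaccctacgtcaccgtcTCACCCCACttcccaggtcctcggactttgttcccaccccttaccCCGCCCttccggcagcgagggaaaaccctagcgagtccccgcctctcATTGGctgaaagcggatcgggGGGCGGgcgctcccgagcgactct
Insig1: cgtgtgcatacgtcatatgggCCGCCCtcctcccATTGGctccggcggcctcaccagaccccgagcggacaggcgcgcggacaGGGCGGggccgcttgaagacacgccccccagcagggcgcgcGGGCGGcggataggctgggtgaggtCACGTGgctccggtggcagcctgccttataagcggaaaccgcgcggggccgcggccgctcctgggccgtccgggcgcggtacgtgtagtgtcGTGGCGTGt
Srebf2: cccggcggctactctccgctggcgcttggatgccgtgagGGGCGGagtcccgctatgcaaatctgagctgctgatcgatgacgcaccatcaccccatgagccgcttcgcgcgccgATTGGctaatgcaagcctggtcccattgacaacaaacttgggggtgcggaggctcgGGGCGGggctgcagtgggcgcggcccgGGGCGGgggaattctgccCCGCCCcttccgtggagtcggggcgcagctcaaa
Fasn: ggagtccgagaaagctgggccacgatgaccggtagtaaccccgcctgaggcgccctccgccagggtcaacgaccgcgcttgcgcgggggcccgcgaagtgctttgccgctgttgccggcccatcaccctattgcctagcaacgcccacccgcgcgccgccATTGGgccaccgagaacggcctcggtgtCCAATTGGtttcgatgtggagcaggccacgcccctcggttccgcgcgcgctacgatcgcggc

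The promoter of Hmgcs1 was the only one of the 24 with TCACNCCAC, starting 137 bases before the start site, and 1.44% of all 27025 genes with a window held it. The looser CACNCCAC, which lies within TCACNCCAC, was found in 3 members (Hmgcs1, Acat2 and Insig1) and in 7.12% of all genes. The box CCAAT, bound by NF-Y, was found in 20 of 24 members (83.3%), beside 41.1% of all genes and 42.5% of the 9388 tested genes with a window. For the Sp1 box GGGCGG the count was also 20 of 24 (83.3%), beside 38.2% of all genes and 68.1% of tested genes. The E-box CACGTG stood in 5 of 24 members (20.8%), beside 11.7% of tested genes. Acaca and Elovl6 had neither CCAAT nor GGGCGG in their windows, and 18 members had both. These are matches of letters only. Genes with several windows had more places to match.

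The groups overlapped in all 7 mevalonate genes, and 0 passed the test. Hmgcs1 joins acetyl-CoA to acetoacetyl-CoA to make HMG-CoA. The gene is annotated as protein-coding on chromosome 13 from 119690379 to 119708260, plus strand (GENCODE M21 on GRCm38). It measured 79.7, 51.0 and 63.1 FPKM in saline replicates 1, 2 and 4 and 61.1, 67.1 and 59.7 FPKM in Riclin replicates 2, 3 and 4. All 3 Riclin values fell between those of saline replicates 1 and 2, and the log2 fold change was -0.022 (SE 0.169, limma adjusted p = 0.988). Idi1, the isomerase that supplies dimethylallyl diphosphate, had the largest difference of this role. It measured 7.59, 5.56 and 8.59 FPKM in saline and 8.27, 9.32 and 8.0 in Riclin. Its log2 fold change was 0.22 (SE 0.151, limma adjusted p = 0.855), and the groups overlapped. It was 0.067 without saline replicate 2 and 0.34 without saline replicate 4. Fdps, which makes farnesyl diphosphate, was the most abundant gene of this role at 62.2 to 91.2 FPKM. The kinases Mvk and Pmvk, the decarboxylase Mvd, the thiolase Acat2, Hmgcs1 and Fdps had log2 fold changes between -0.17 (Acat2) and 0.028 (Mvk). As a role, 2 of 7 were above 0 and the median was -0.022.

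Sequence shared with other genes limits a few of these values. Of the 50-base windows of the longest annotated transcript, 45.9% for Acat2 also occur in another gene, mainly Acat3, and 21.3% for Idi1, 11.7% for Fdps, 10.9% for Fdft1 and 52.6% for Acaca also occur elsewhere. The sources used here do not say how reads of shared sequence were counted.

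From squalene to cholesterol, 7 of 11 genes had a log2 fold change above 0 and 4 below, with a median of 0.035, and 0 passed the test. Sqle, squalene epoxidase, a control point of this stretch, measured 34.4, 23.2 and 26.3 FPKM in saline replicates 1, 2 and 4 and 21.9, 28.7 and 28.9 FPKM in Riclin replicates 2, 3 and 4. The lowest value was in a Riclin library and the highest in a saline one, and the log2 fold change was -0.066 (SE 0.173, limma adjusted p = 0.967). Hsd17b7, a ketoreductase of sterol demethylation, had the lowest level of all 30 genes. It measured 2.21, 1.92 and 1.89 FPKM in saline and 2.14, 2.30 and 3.07 in Riclin, with a log2 fold change of 0.21 (SE 0.127, limma adjusted p = 0.843). Its Riclin values were led by replicate 4, and without that library the log2 fold change was 0.099.

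The other 9 genes of this stretch had log2 fold changes from -0.13 (Ebp) to 0.14 (Lss). They are squalene synthase Fdft1, lanosterol synthase Lss, the demethylase Cyp51, the oxidase Msmo1, the dehydrogenase Nsdhl, the isomerase Ebp, the desaturase Sc5d and the reductases Tm7sf2 and Dhcr7. The most abundant was Msmo1 at 29.1 to 38.3 FPKM. In this role the coefficient of variation over the 6 libraries lay between 9.55% (Msmo1) and 19.1% (Hsd17b7).

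Of the regulators 0 of 6 passed the test, with 3 of 6 above 0 and a median of 0.0043. Srebf2, whose product drives mainly sterol genes, measured 40.1, 29.1 and 27.7 FPKM in saline replicates 1, 2 and 4 and 31.4, 35.2 and 33.9 FPKM in Riclin replicates 2, 3 and 4. Saline replicate 1 was above and the other saline libraries were below all Riclin libraries, and the log2 fold change was 0.069 (SE 0.152). Srebf1, whose product drives mainly fatty acid genes, measured 19.0, 11.7 and 11.9 FPKM in saline and 12.5, 14.3 and 13.5 in Riclin. As for Srebf2, saline replicate 1 was above and the other saline libraries were below all Riclin libraries, and the log2 fold change was -0.047 (SE 0.181).

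Insig1, a retention protein that is itself induced by SREBP, measured 36.3, 25.4 and 31.5 FPKM in saline and 26.6, 27.9 and 33.6 in Riclin. Its log2 fold change was -0.071 (SE 0.155). Insig2, the second retention protein, was the steadiest gene of the 30, with a coefficient of variation of 5.15% over the 6 libraries, values from 6.55 to 7.53 FPKM and a log2 fold change of 0.039 (SE 0.093). For Scap, the escort protein, the values were 27.0, 25.2 and 20.7 FPKM in saline and 25.8, 26.0 and 23.4 in Riclin, with a log2 fold change of 0.049 (SE 0.124). Stard4, a carrier of sterol between membranes, measured 9.01, 5.03 and 9.35 FPKM in saline and 8.92, 6.87 and 6.51 in Riclin. Its log2 fold change was -0.031 (SE 0.220), and by limma the adjusted p of these 6 genes was 0.956 or higher.

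**Figure D2:**
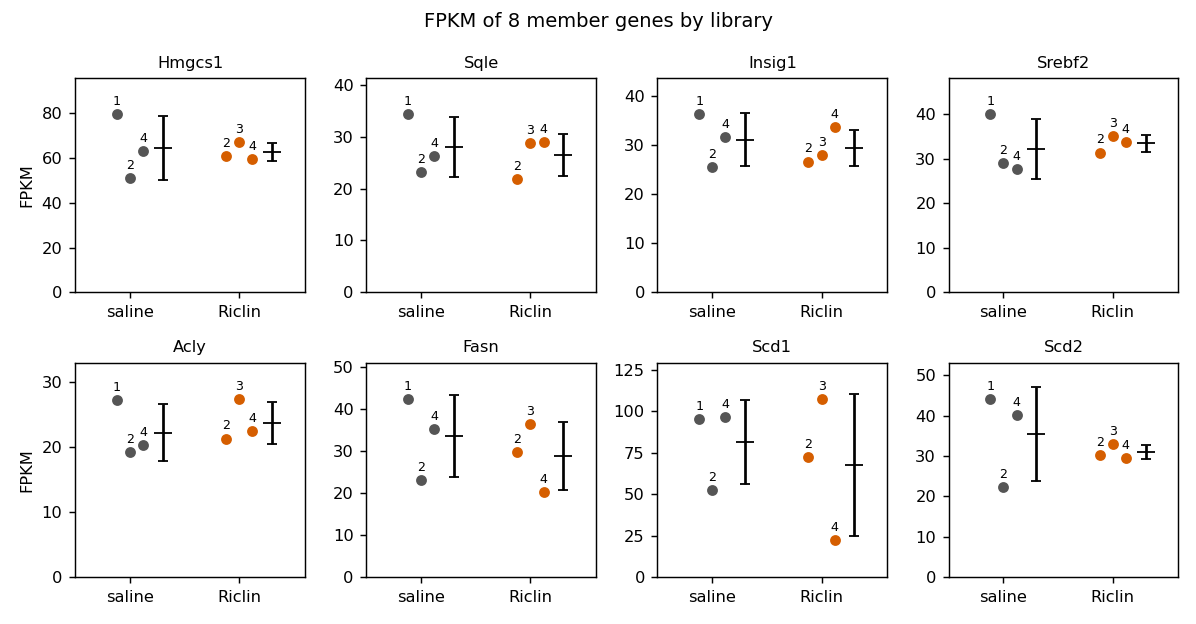
FPKM (vertical axes from 0) of 8 genes in each library, with saline in grey, Riclin in orange and the replicate number beside each point, and the mean with SD (n = 3) as a bar to the right of each group. Groups overlap in every panel, saline replicate 1 is the highest saline library in all panels but Scd1, and Riclin replicate 4 lies far below the other libraries in Scd1, at 22.5 FPKM.

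The 6 fatty acid genes had a median coefficient of variation of 21.8% over the libraries, beside 15.0% for the 18 enzymes of the sterol arm, and Riclin replicate 4 was lowest in 4 of the 6. Scd1, the desaturase that makes monounsaturated fatty acids, lies on chromosome 19 from 44394455 to 44407879, minus strand. It measured 95.5, 52.5 and 96.6 FPKM in saline replicates 1, 2 and 4 and 72.5, 107.6 and 22.5 FPKM in Riclin replicates 2, 3 and 4. The highest and the lowest of the 6 values were both in Riclin libraries, 4.78-fold apart. The log2 fold change was -0.47 (SE 0.530, 95% interval -1.71 to 0.76, limma adjusted p = 0.916), and 0.17 without Riclin replicate 4. Fasn, fatty acid synthase (chromosome 11, 120805846 to 120824547, minus strand), measured 42.5, 23.1 and 35.2 FPKM in saline and 29.7, 36.3 and 20.4 in Riclin. Riclin replicate 4 was again lowest, with saline replicate 2 next to it, and the log2 fold change of -0.21 (SE 0.265, limma adjusted p = 0.924) was 0.010 without Riclin replicate 4.

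Scd2, a desaturase of the same family, measured 44.2, 22.3 and 40.0 FPKM in saline and 30.3, 33.0 and 29.6 in Riclin. Here Riclin replicate 4 was close to the other Riclin libraries and saline replicate 2 was lowest. Its log2 fold change was -0.14 (SE 0.236), and without saline replicate 2 it was -0.43 with an unadjusted limma p under 0.05, the 1 such case among the members in any alternative, and an adjusted p of 0.508. Of the 50-base windows of Scd1, 4.66% occur in another gene, mainly Scd3, and of Scd2 4.01%, mainly in Scd1. Acly, which makes cytosolic acetyl-CoA from citrate, measured 27.2, 19.2 and 20.3 FPKM in saline and 21.3, 27.4 and 22.5 in Riclin, with a log2 fold change of 0.099 (SE 0.159). Acaca, which makes malonyl-CoA, measured 5.84, 3.60 and 5.03 FPKM in saline and 4.60, 5.42 and 3.59 in Riclin, with a log2 fold change of -0.068 (SE 0.180). The elongase Elovl6 ranged from 5.37 FPKM in Riclin replicate 4 to 8.19 in saline replicate 4. Over the 6 fatty acid genes 1 was above 0 and the median log2 fold change was -0.10.

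The summed markers of fat cells and of some other cell types were lowest in Riclin replicate 4 too, while those of further cell types were not. The 11 adipocyte markers summed to 376 to 501 FPKM in saline and to 330, 462 and 238 FPKM in Riclin replicates 2, 3 and 4. Adiponectin (Adipoq) measured 7.83 FPKM in Riclin replicate 4, beside 16.4 to 28.7 elsewhere, and the lipid droplet coat gene Plin1 2.36 against 3.94 to 7.41. Of the 11 markers 8 were lowest in that library. Cidec, another lipid droplet gene, was not, at 18.3 FPKM beside 14.3 in Riclin replicate 2 and 16.0 in saline replicate 4. Lep, which encodes leptin, was too low to be tested. It was about level in Riclin replicates 3 (0.291 FPKM) and 4 (0.299 FPKM). Riclin replicate 4 was also lowest in the summed markers of surface mucous cells (58158 FPKM, others 61614 to 105058), mucous neck cells (2258, others 3496 to 13414) and intestinal absorptive cells (225, others 229 to 372). For the intestinal list the sums of saline replicate 2 (229) and Riclin replicate 2 (235) were close, and 4 of 8 genes were lowest in Riclin replicate 4. In that library the summed markers of parietal cells (5641, others 3320 to 5934) and chief cells (62328, others 33811 to 81984) were not low. Nor were those of liver (1515, others 888 to 1676) or smooth muscle (1565, others 1342 to 1914). Of the 10 adipocyte markers tested, 8 had a log2 fold change below 0, while 61.3% of all genes were above 0. By limma 2 of the 10 had an unadjusted p under 0.05, beside 5.9% of all genes, and 0 passed the adjusted test. No marker of the list was at 0 in all libraries, and the part of fat cells or of the other cell types in the level of Scd1 or Fasn was not tested. In whole tissue, fewer cells of a type and less RNA per cell cannot be told apart.

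The highest and lowest values of the members were spread unevenly over the libraries. Saline replicate 1 held the highest value for 21 of the 30 genes and Riclin replicate 3 for 6. With acinar genes removed these counts were 20 and 0, that of saline replicate 4 went from 2 to 6, and with median-of-ratios or upper-quartile scaling saline replicate 1 and Riclin replicate 3 held 22 and 1. The lowest value lay in saline replicate 2 for 13 genes, in saline replicate 4 for 7, in Riclin replicate 4 for 6 and in Riclin replicate 2 for 4. With acinar genes removed it lay in these libraries for 11, 4, 6 and 6 genes, in Riclin replicate 3 for 2 and in saline replicate 1 for 1. All 30 genes were higher in saline replicate 1 than in saline replicate 2, by 0.061 to 0.95 on the log2 scale, with a median of 0.48 beside 0.14 over all genes. This pair was picked after its values were seen, so the distance is a description.

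With acinar genes removed and the libraries rescaled, the median distance between saline replicates 1 and 2 was 0.32 for the members and -0.0027 over all genes, with 26 of 30 higher in replicate 1. Riclin replicate 3 was above Riclin replicate 2 in 29 of 30 members, with a median distance of 0.19 beside 0.13 over all genes, and in 23 of 30 with acinar genes removed, with a median of 0.050.

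Markers of other cells differed between saline replicates 1 and 2 as well. The summed level was 86.8 and 359 FPKM for 11 squamous forestomach markers, 64034 and 33811 for 4 chief cell markers, and 105058 and 80584 for 7 surface mucous markers. Their part in the levels of the members was not tested.

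As a share of reads the members made up 0.343, 0.224 and 0.287% of the saline libraries (replicates 1, 2 and 4). They made up 0.262, 0.314 and 0.238% of the Riclin libraries (replicates 2, 3 and 4). Their 95% Wilson interval was 0.341 to 0.345% for the highest and 0.223 to 0.226% for the lowest library, covering counting error only. With acinar marker reads left out of the total, a denominator chosen after seeing the data, the share was 0.356, 0.262 and 0.334% in saline and 0.291, 0.314 and 0.262% in Riclin. Saline replicate 1 was highest on both counts, and saline replicate 2 and Riclin replicate 4 were then level within counting error.

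**Figure D3:**
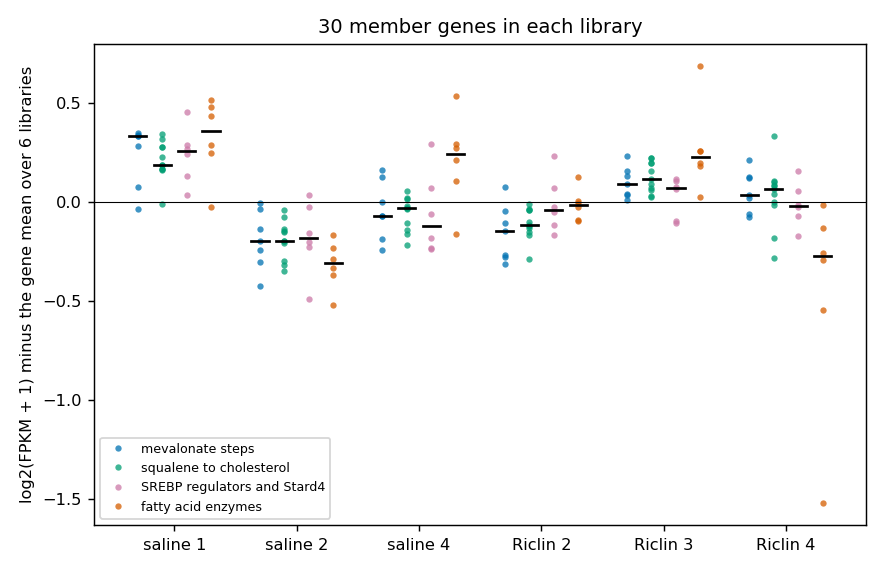
Each point is 1 of the 30 genes in 1 library, as log2(FPKM + 1) minus that gene's mean over the 6 libraries (vertical axis), coloured by role, and short black bars are role medians. Saline replicate 1 lies above the gene mean in 27 of 30 genes, Riclin replicate 3 in 28, and saline replicate 2 below it in 29. In Riclin replicate 4 the lowest value of the 6 libraries is found for 4 of 6 fatty acid genes and for 2 of 11 genes from squalene to cholesterol.

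The role means fell in different orders. The mean log2(FPKM + 1) of the 18 mevalonate and sterol enzymes was 4.18, 3.76 and 3.90 in the saline libraries (replicates 1, 2 and 4), beside 3.83, 4.07 and 4.0 in the Riclin libraries (replicates 2, 3 and 4). The group means were 3.95 ± 0.21 and 3.96 ± 0.12 (SD, n = 3 each). For the 6 fatty acid genes the means were 4.67, 4.03 and 4.56 in saline and 4.34, 4.62 and 3.89 in Riclin. These gave group means of 4.42 ± 0.34 and 4.28 ± 0.37 (SD, n = 3 each), so the spread inside each group was larger than the distance between them. Saline replicate 1 was highest in both, while the lowest library was saline replicate 2 for the sterol enzymes and Riclin replicate 4 for the fatty acid genes.

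Ratios of 2 genes within a library do not move with its scaling, and 5 were compared. The Scd1 to Scd2 ratio was 2.16, 2.35 and 2.41 in the saline libraries (replicates 1, 2 and 4), beside 2.39, 3.26 and 0.761 in the Riclin libraries (replicates 2, 3 and 4). Only in Riclin replicate 4 was Scd1 below Scd2, and without it the mean difference in log2 ratio turned from -0.35 to 0.28. Fasn to Hmgcs1, the fatty acid against the sterol arm, was 0.533, 0.454 and 0.557 in saline and 0.486, 0.541 and 0.341 in Riclin, again lowest in Riclin replicate 4. Its mean difference in log2 ratio was -0.20.

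Srebf1 to Srebf2 was 0.475, 0.402 and 0.430 in saline and 0.396, 0.405 and 0.397 in Riclin, a difference of -0.12 in log2 ratio, and -0.056 without saline replicate 1. The 3 Riclin values lay close together, and 1 of them was above the lowest saline value. Sqle to Lss was 6.22, 6.48 and 5.55 in saline and 4.70, 5.23 and 5.58 in Riclin, a difference of -0.24, and Insig1 to Insig2 was 3.78 to 5.13 in saline and 3.71 to 4.97 in Riclin. By exact two-sided permutation tests over the 6 libraries, p was 0.2 for Srebf1 to Srebf2 and for Sqle to Lss, 0.6 for Fasn to Hmgcs1, 0.7 for Insig1 to Insig2 and 0.9 for Scd1 to Scd2. Adjusted over the 5 ratios, the lowest exact permutation p was 0.5, and 3 against 3 libraries cannot give an unadjusted value below 0.1.

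**Figure D4:**
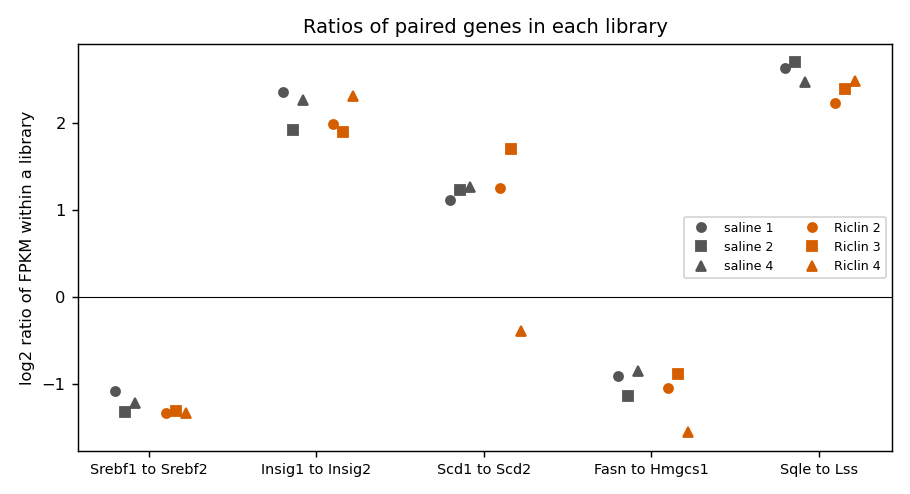
Log2 ratio of FPKM within each library (vertical axis) for 5 gene pairs, saline in grey and Riclin in orange, with a symbol for each library. Riclin replicate 4 is apart from the other libraries in Scd1 to Scd2, at -0.39, and lowest in Fasn to Hmgcs1, and the groups overlap in all 5 pairs.

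Other genes of lipid metabolism were taken from 7 lists of 70 genes, of which 65 were tested. By limma 0 of 65 passed the adjusted test and 5 (7.69%, beside 5.9% of all genes) had an unadjusted p under 0.05, 3 higher and 2 lower in Riclin. The median log2 fold change over the 65 was 0.025, and the groups did not overlap in 6 (9.23%, beside 11.2% of all genes). Both shares lay near those of all genes.

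Stard3, a sterol carrier of late endosomes, measured 13.0, 11.7 and 11.7 FPKM in saline and 13.3, 16.1 and 16.2 in Riclin, with a log2 fold change of 0.30 (SE 0.111, limma adjusted p = 0.791). The groups did not overlap, with saline replicate 1 next to Riclin replicate 2. Gpam, the acyltransferase that starts triglyceride synthesis, measured 9.12, 7.20 and 7.16 FPKM in saline and 9.98, 10.9 and 9.49 in Riclin, a log2 fold change of 0.34 (SE 0.119, limma adjusted p = 0.791), also with no overlap. Dgat1, which adds the last acyl chain to triglyceride, measured 17.6, 13.2 and 18.1 FPKM in saline and 11.7, 14.7 and 9.52 in Riclin, with overlap and a log2 fold change of -0.42 (SE 0.177, limma adjusted p = 0.820). Nr1h3, the sterol-sensing receptor LXR alpha, measured 3.70, 2.74 and 2.76 FPKM in saline and 1.74, 2.59 and 2.14 in Riclin. Its log2 fold change was -0.36 (SE 0.143, limma adjusted p = 0.806), with no overlap between the groups.

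Of the lists, 5 of 8 genes of sterol synthesis, 6 of 8 of SREBP processing, 10 of 13 of sterol uptake and storage and 5 of 8 of LXR and sterol efflux had a log2 fold change above 0. Above 0 were also 5 of 9 genes of fatty acid supply, 6 of 9 of elongation and desaturation and 6 of 10 of acyl-CoA and triglyceride synthesis. The largest list median was 0.12, for sterol uptake and storage, and the other 6 lay between 0.012 and 0.045, beside 0.040 over all genes.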

How the data were processed

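RNA of mouse stomach was sequenced in 3 saline and 3 Riclin libraries. The authors deposited 1 table of FPKM values per gene symbol and library. The submitters' processing notes name mm10 as build and Bowtie2 as a tool, its role and version unstated. The counting method, annotation and strand setting were not given in the sources used here, so reads of genes overlapping on opposite strands cannot be told apart. Groups follow the treatment label and replicate numbers the titles.

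Genes that reached an FPKM of 1 in 3 or more libraries (11738, all 30 members among them) were fitted as log2(FPKM + 1), which understates changes of low genes, by limma 3.58.1 (R 4.3.3) with an intensity trend, no covariate, two-sided tests and Benjamini-Hochberg adjustment over all genes at 0.05. The fit was tested on simulated data. Whole reads behind the values were recovered from ratios between libraries for 23549 of 23550 genes (relative tolerance 1e-09) and served for depth, shares and a voom fit. Members and lists were chosen with earlier results of these data known, so lists get counts and medians only. Values by library are given for regulators, for enzymes that start or control each arm (Hmgcs1, Sqle, Acly, Acaca, Fasn, Scd1, Scd2), for members among the 4 largest changes, and for other pathway genes with an unadjusted p under 0.05, of which 1 is not reported here. Ratios were tested by exact permutation (scipy 1.17.1). Positions came from GENCODE M21 (GRCm38, the same assembly as mm10). Figures were drawn with matplotlib 3.10.9 in Python 3.11.15.

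Alternatives were other scalings (upper quartile, median of ratios), filters (none, FPKM 5), a pseudocount of 0.1, a robust prior, the replicate number as a block, acinar genes removed, voom, each library left out, and saline replicate 1 with Riclin replicate 3 left out.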

Additional observations from a re-analysis of the deposited data

How the results depend on the processing

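Under all 16 alternatives 0 members and 0 other pathway genes passed the adjusted test, and the lowest adjusted limma p of a member was 0.508, without saline replicate 2. The median log2 fold change of the members was -0.076 with acinar genes removed and 0.088 with the replicate block, and lay between -0.10 and 0.12 with 1 library left out. Members above 0 numbered 13, and 8 with median-of-ratios scaling, 7 with acinar genes removed, 22 with the replicate block, 22 without saline 1 and Riclin 3 together, and 7 to 24 with 1 library left out. Members with an unadjusted p under 0.05 numbered 0 to 1 with 1 library left out. The other pathway genes at that level numbered 5, and 2 with no filter, 8 with the block, 8 without the 2 libraries together, and 2 to 5 with 1 library left out.

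Titles share only the numbers 2 and 4 between groups, and nothing in the labels says that a number pairs animals. The correlation of deviations from the group means was 0.22 for the libraries numbered 2 and 0.011 for those numbered 4, and -0.44 to 0.39 for the other combinations. The replicate block uses the same 4 libraries as the fit without saline 1 and Riclin 3, so both give the same fold changes. In both fits the log2 fold change turned for Hmgcs1 (0.089), Sqle (0.027), Srebf1 (0.12), Insig1 (0.076), Stard4 (0.13) and Scd2 (5.6e-04), none of them called. The list is not complete, since members above 0 rose from 13 to 22.

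Among the genes listed in this paragraph, scaling turned Insig2 to -0.0024 (median-of-ratios), and Insig2 to -0.019 and Scap to -0.014 (acinar genes removed). Other members turned as well, since those above 0 fell from 13 to 8 and 7 with these scalings. With 1 library left out the log2 fold change lay between -0.18 and 0.14 for Hmgcs1, -0.19 and 0.088 for Sqle, -0.16 and 0.17 for Srebf1, -0.029 and 0.23 for Srebf2, -0.20 and 0.044 for Insig1, -0.0074 and 0.066 for Insig2, -0.057 and 0.13 for Scap, -0.28 and 0.11 for Stard4, -0.0047 and 0.25 for Acly, -0.23 and 0.061 for Acaca, -0.45 and 0.010 for Fasn, -0.94 and 0.17 for Scd1, -0.43 and 0.046 for Scd2, 0.067 and 0.34 for Idi1, 0.099 and 0.29 for Hsd17b7, and -0.57 and -0.28 for Dgat1. The difference in log2 ratio then lay between -0.77 and 0.28 for Scd1 to Scd2, -0.33 and 0.00056 for Fasn to Hmgcs1, -0.18 and -0.056 for Srebf1 to Srebf2, -0.25 and -0.029 for Insig1 to Insig2, and -0.30 and -0.17 for Sqle to Lss. For these turned signs the cause was not tested. At least 332 reads lay behind each value of a member, and the part of depth in the spread between libraries was not tested.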
